A study of Mus musculus with 4 samples.

Results

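Sox7, Sox17 and Sox18 form the SoxF group of transcription factors. They were located by symbol on the mm9 GENCODE annotation, and each locus was taken as the gene body with 10 kb on each side. These are 3 of the 22219 protein-coding genes of that annotation, and their windows held 7 of the 22409 merged RYBP regions of the series. The rule for membership is position and uses no measured value.

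SoxF proteins bind DNA through an HMG box, a domain that bends the double helix, and switch on genes of endothelial cells. Sox17 is best known for its roles in definitive endoderm, in arterial endothelium and in haemogenic endothelium, the vessel lining from which blood cells arise. Sox18 acts in vessels and in the first lymphatic endothelium, and Sox7 is expressed in early haemangioblasts and endothelium.  RYBP belongs to a variant form of Polycomb repressive complex 1, an enzyme complex that adds ubiquitin to histone H2A. Polycomb complexes in mammals gather at unmethylated stretches rich in CpG, the dinucleotide of C followed by G.

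RYBP occupancy was measured by chromatin immunoprecipitation and sequencing (ChIP-seq) in FLK1+ mesoderm from embryoid bodies. The embryoid bodies came from wild-type ES cells of strain C57Bl/6 X Sv129. FLK1+ mesoderm includes the cells with blood and vessel potential, and the study also describes FLK1+ cells with other mesodermal potentials. According to the labels the embryoid bodies were at day 3.75, all samples came from a single condition, and the antibody was raised against DEDAF, another name of RYBP. A somewhat later day is given for this ChIP in the study's methods. There were 2 ChIP samples and 2 input samples, and the inputs were not analysed here. The study used a single wild-type ES cell line and purified FLK1+ cells with magnetic beads, and the text on the series' design speaks of an SCL ChIP where title and antibody name RYBP. A peak list holds no expression, so the identity of the sorted cells, and whether the SoxF genes were transcribed in them, could not be checked here. The study lists Sox17 among genes bound by SCL, its corepressor ETO2 and RYBP and activated by SCL. Activation was read from RNA-seq of FLK1+ cells of an earlier day. The study reports RYBP at most genes that SCL bound and regulated. It describes Sox18 as lowly expressed in whole embryoid bodies around this stage.

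The authors called peaks in each replicate separately and merged the lists. The merged list was the union of both, so a merged region may come from a single replicate. Fold enrichment below is the authors' ratio of ChIP pile-up to local background, and −log10 q expresses the significance of a peak after correction for multiple testing. The broad-peak lists give a single value per peak and no summit, so that fold enrichment is not a peak height. A percentile is the share of all peaks of that replicate with a lower value. The median fold enrichment of all peaks was 3.29 in replicate 1 and 3.60 in replicate 2. Of the 9901 merged regions found in both replicates, 77.7% had the higher fold enrichment in replicate 2. Read depth is not given in the peak lists, so that no counting error could be attached to a single peak. By the study's own account replicate 1, the shorter list, was the more deeply sequenced library. A single group with 3 genes and 2 peak lists allows no test, and the values below are descriptions.

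All 3 SoxF windows held a merged region, and all 3 held one found in both replicates. Over all protein-coding genes the same windows held a merged region in 63.0% and one found in both replicates in 45.0%. Each SoxF gene also had a peak of both replicates within 2.5 kb of a start site, which was the case for 37.5% of all protein-coding genes. A start site was called CpG-rich where the 500 bp to either side held at least 3 CpG per 100 bp, and 58.8% of genes of that class were occupied. Such a background leaves 3 occupied genes of 3 as no measure of preference for the group, and the position of RYBP within each gene is described instead.

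Within the Sox17 and Sox18 regions, the stretches of 200 bp with the most CpG outside UTRs and core promoters (250 bp before to 50 bp after a start site) were read from the mm9 genome on the strand of the gene. They are shown because the SoxF regions found in both replicates were denser in CpG than their windows, and CpG dinucleotides are in capitals. The stretch of Sox17 in coding exon 5 lay at chr1:4482028-4482227 on the minus strand, and the one upstream of its start site at chr1:4487439-4487638. The stretch of Sox18 lay in coding exon 1, at chr2:181405933-181406132 on the minus strand.
Sox17 exon 5: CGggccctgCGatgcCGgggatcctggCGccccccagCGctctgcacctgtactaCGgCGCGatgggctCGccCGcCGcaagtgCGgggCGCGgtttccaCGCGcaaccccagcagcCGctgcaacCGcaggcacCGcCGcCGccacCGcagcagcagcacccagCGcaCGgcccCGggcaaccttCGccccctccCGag
Sox17 upstream: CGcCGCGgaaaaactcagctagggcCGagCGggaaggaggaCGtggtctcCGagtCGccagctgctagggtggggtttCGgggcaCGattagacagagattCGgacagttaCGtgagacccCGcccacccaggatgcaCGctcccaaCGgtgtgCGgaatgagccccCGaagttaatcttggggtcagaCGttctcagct
Sox18 exon 1: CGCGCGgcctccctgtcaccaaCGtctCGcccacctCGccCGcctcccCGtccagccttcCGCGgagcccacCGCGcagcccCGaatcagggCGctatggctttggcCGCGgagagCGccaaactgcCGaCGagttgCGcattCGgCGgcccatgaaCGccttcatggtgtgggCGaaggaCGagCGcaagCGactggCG

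The stretches held 27 CpG in Sox17 exon 5, 18 upstream of Sox17 and 28 in Sox18. Their GC content was 76.5%, 61.5% and 70.5%, in the same order. The Sox18 stretch included codons from the start of the HMG box, the conserved DNA-binding domain of all Sox proteins. A signature of 8 codons from the start of the box was located in both coding sequences. It began at codon 71 of 419 in Sox17 and codon 82 of 377 in Sox18. The signature lay inside a peak of each replicate in both genes.

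**Figure D1:**
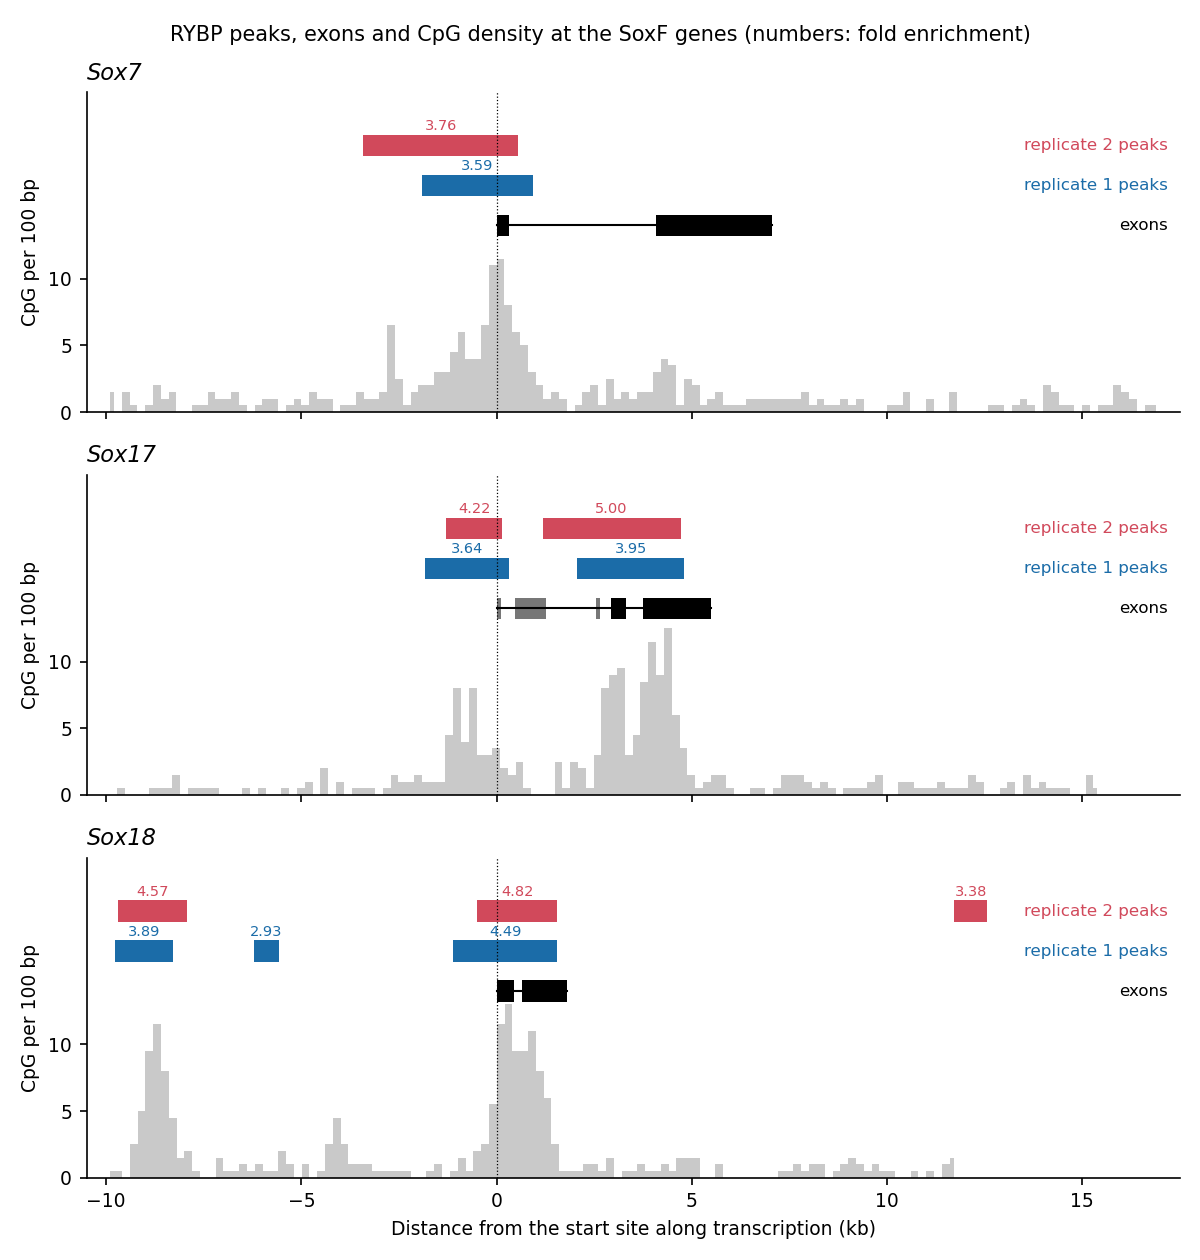
RYBP peaks of replicate 1 (blue) and replicate 2 (red) with their fold enrichment, exons (black where any base is coding, grey where none is) and CpG per 100 bp in bins of 200 bp (light grey, left axis), against distance from the start site in kb along transcription. RYBP lay upstream of Sox7 and over its exon 1, on both sides of a gap at Sox17, and over nearly the whole of Sox18.

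Sox7 (ENSMUSG00000063060.5) lies at chr14:64562511-64569569 on the plus strand and has 2 exons. RYBP occupied a single region of its window, chr14:64559100-64563447. The region was 4348 bp wide, wider than 97.6% of all merged regions and 94.6% of those found in both replicates. It ran from 3411 bp before the start site to 936 bp after it. Fold enrichment was 3.59 in replicate 1 and 3.76 in replicate 2, a mean of 3.68 ± 0.121 (SD, n = 2). These values stood at percentiles 67.5 and 58.4 of the lists, so that the region was unusual in its width and not in its fold enrichment. The −log10 q was 3.43 and 3.20.

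The peaks of Sox7 ended in different places. Replicate 1 contained 2855 bp, starting 1918 bp before the start site, and replicate 2 contained 3958 bp, starting 3411 bp before it. They shared 2465 bp, or 56.7% of the region. Both covered the whole 5′ UTR and the 238 coding bp of exon 1, which is 20.9% of the coding sequence. Exon 2, with the other 902 coding bp and the 3′ UTR, lay outside the peaks of both replicates. The nearest other merged regions were 24959 bp upstream and 102193 bp downstream of the start site.

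Sox17 (ENSMUSG00000025902.7) lies at chr1:4481009-4486494 on the minus strand, with 5 exons and 2 annotated start sites that are close together. Its start codon is in exon 4, 3007 bp downstream of the first start site, so that the long leader is made of non-coding exons. RYBP occupied a pair of regions here, both found in both replicates. The region over the start sites, chr1:4486164-4488330, was 2167 bp wide and ran from 1836 bp before to 330 bp after the first start site. Its fold enrichment was 3.64 in replicate 1 and 4.22 in replicate 2 (mean 3.93 ± 0.413, SD, n = 2), and its −log10 q was 3.80 and 4.41.

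The other region of Sox17, chr1:4481685-4485314, lay wholly inside the gene, from 1180 to 4809 bp after the start site. It was 3630 bp wide. Its fold enrichment was 3.95 in replicate 1 and 4.996 in replicate 2 (mean 4.47 ± 0.740, SD, n = 2), at percentiles 82.2 and 90.6. Its −log10 q was 5.21 and 8.70, at percentiles 90.2 and 96.3. In each replicate this region had higher values than the one over the start sites. The difference was 0.314 in replicate 1 and 0.776 in replicate 2 for fold enrichment, and 1.41 and 4.29 for −log10 q. The order within the gene was thus shared by both replicates. Across replicates, however, the ranges of fold enrichment of the 2 regions overlapped, where most regions of the series were higher in replicate 2.

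The intragenic peaks of Sox17 covered all 1257 coding bp in both replicates, 307 in exon 4 and 950 in exon 5. Of the 3′ UTR, 14.5% was covered in replicate 1 and 2.53% in replicate 2. In replicate 1 the intragenic peak started 2059 bp after the start site and in replicate 2 at 1180 bp. Between both Sox17 regions lay a gap of 849 bp, chr1:4485315-4486163, with 0.942 CpG per 100 bp and a GC content of 36.5%. The flanking regions had 3.60 CpG per 100 bp at the start site and 5.26 over the coding exons. The nearest other merged regions lay 75277 bp upstream and 822590 bp downstream of the first start site.

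Sox18 (ENSMUSG00000046470.5) lies at chr2:181404541-181406345 on the minus strand, and is a compact gene of 1805 bp with 2 exons. Its window held 4 merged regions, of which 2 were found in both replicates. The region at the gene itself, chr2:181404788-181407450, was 2663 bp wide and ran from 1105 bp before the start site to 1557 bp after it. Fold enrichment was 4.49 in replicate 1 and 4.82 in replicate 2 (mean 4.65 ± 0.238, SD, n = 2), at percentiles 93.4 and 88.2. The −log10 q was 6.14 and 6.06. RYBP peaks covered 86.2% of the gene body in replicate 1 and 86.3% in replicate 2, including all 1131 coding bp, the 5′ UTR and the intron. Only the distal part of the 3′ UTR was left uncovered. The 3′ edges of the replicate peaks were nearly the same, at 1555 and 1557 bp after the start site.

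The other regions of the Sox18 window lay away from the gene. One, chr2:181414277-181416107, covered the start site of Tcea2, which encodes a transcription elongation factor and starts on the opposite strand at −8670 bp from the Sox18 start site. Its fold enrichment was 3.89 in replicate 1 and 4.57 in replicate 2, and it belongs to Tcea2 by position. A region of 657 bp, chr2:181411911-181412567, was called in replicate 1 alone, where fold enrichment was 2.93 and −log10 q 1.34. A region of 842 bp, chr2:181393782-181394623, was called in replicate 2 alone, with values of 3.38 and 1.73, and only 83 bp of it lay inside the window. Both single-replicate regions were in the lower part of their list, at fold percentiles 14.04 and 35.6. The window also held a U6 snRNA gene, on which no peak was called. Without the region of Tcea2 and those found in a single replicate, the SoxF genes carried 4 regions in all.

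**Figure D2:**
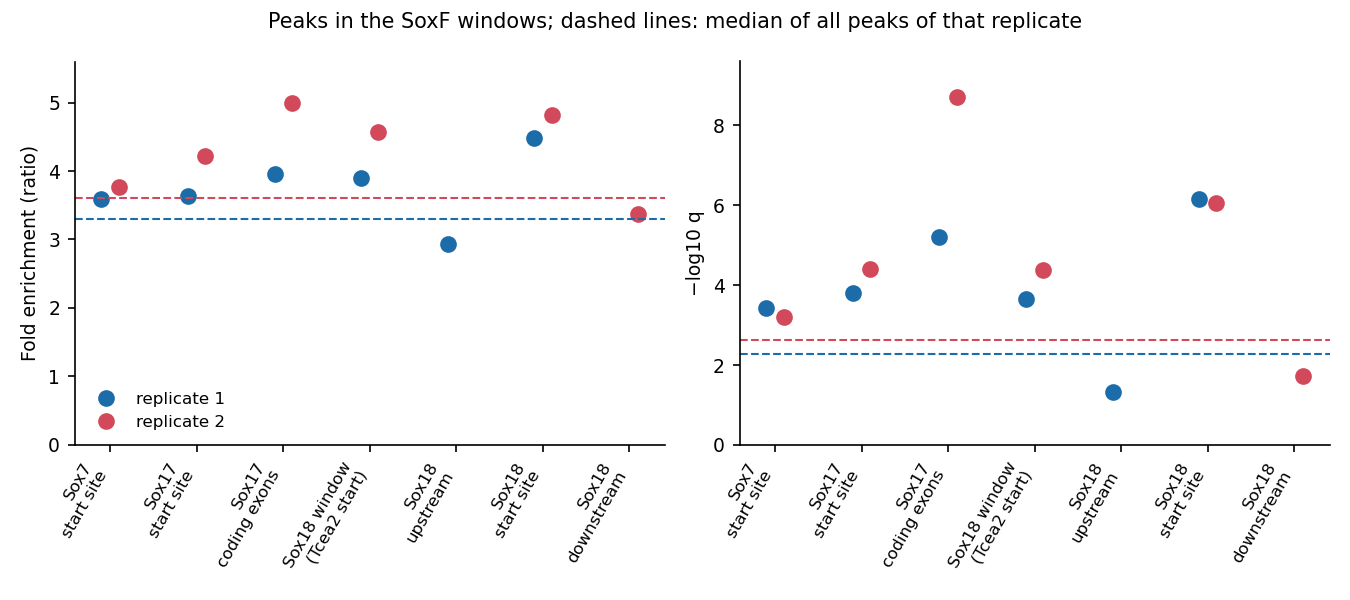
Fold enrichment (left) and −log10 q (right) of each peak in the SoxF windows, for replicate 1 (blue points) and replicate 2 (red points). Dashed lines are the medians of all peaks, 3.29 and 3.60 for fold enrichment, and each region found in both replicates stands above the median of its replicate in both panels. Those medians include peaks found in a single replicate, so that this is no comparison among regions found in both.

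Set side by side, Sox18 stood above Sox7 in both replicates, and the lowest Sox18 value (4.49) exceeded the highest Sox7 value (3.76). The order of Sox18 and the coding-exon region of Sox17 was not settled, since Sox18 was higher in replicate 1 (4.49 against 3.95) and Sox17 in replicate 2 (4.996 against 4.82). The start-site region of Sox17 was above the region of Sox7 in each replicate, 3.64 against 3.59 in replicate 1 and 4.22 against 3.76 in replicate 2. Across replicates their ranges overlapped. The lists differ between chromosomes, and the medians of fold enrichment for replicates 1 and 2 were 3.46 and 3.76 among chromosome 14 peaks, 3.20 and 3.44 among those of chromosome 1, and 3.30 and 3.63 among those of chromosome 2. Within its own chromosome, Sox7 stood at percentiles 56.1 and 50.2, the coding-exon region of Sox17 at 84.8 and 91.7, and the start-site region of Sox18 at 93.6 and 87.2. Agreement of the replicates in base pairs, as the shared part of all bases covered in the window, was 0.567 at Sox7, 0.710 at Sox17 and 0.663 at Sox18. The Sox18 value includes the Tcea2 region and the regions called in a single replicate. Region by region, the shared part was 77.3% at the Sox18 gene and 56.7% at Sox7. At Sox17 it was 67.2% over the start sites and 73.2% over the coding exons.

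**Figure D3:**
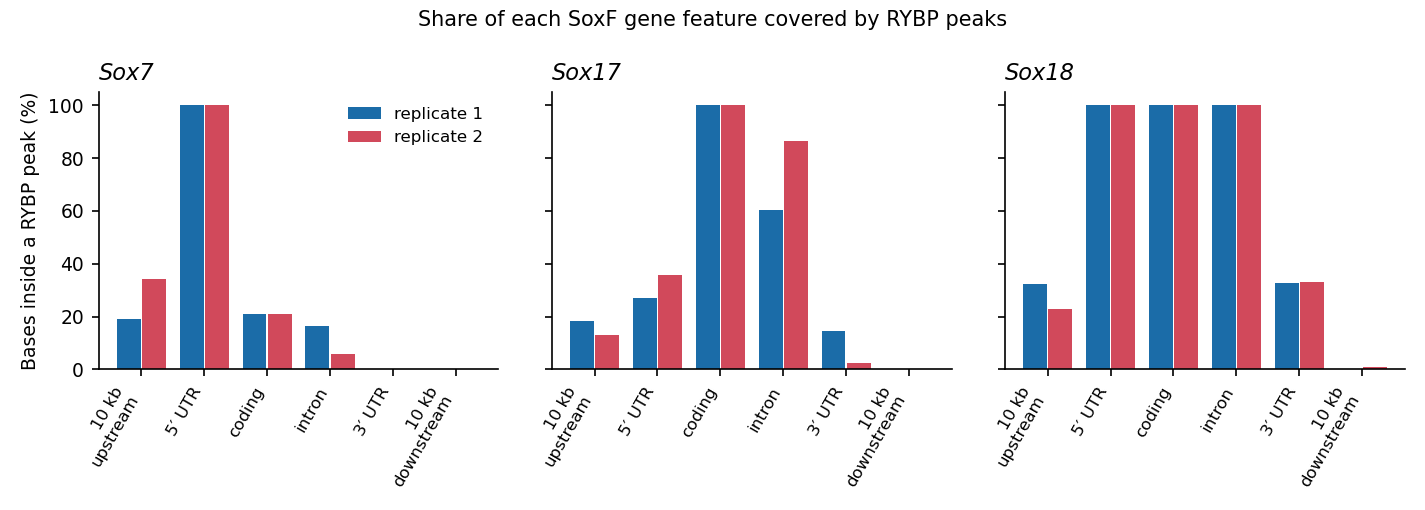
Percent of the bases of each feature that lay inside a RYBP peak, for replicate 1 (blue bars) and replicate 2 (red bars); upstream and downstream are the flanks of 10 kb, which at Sox18 include the Tcea2 region. The coding sequence was covered in full at Sox17 and Sox18 and to 20.9% at Sox7, and the downstream flanks were almost free of peaks.

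In the regions found in both replicates, CpG density was above that of the whole window at all 3 loci. It was 4.30 CpG per 100 bp at Sox7, 3.60 and 5.26 at Sox17 and 6.23 at Sox18, with 4.81 in the Tcea2 region, whereas the whole windows had 1.42, 1.53 and 1.71. The region called upstream of Sox18 in replicate 1 alone had 0.761, below its window. Merged regions took up 16.1% of the Sox7 window and held 187 of its 384 CpG (48.7%). At Sox17 they took up 22.7% and held 269 of 390 CpG (69.0%), and at Sox18 they held 261 of 373 (70.0%). The Sox18 region over the start site held 166 of these CpG (44.5% of the window) and the Tcea2 region 88. In bins of 200 bp, peaks of each replicate covered at least 50% of the bin in 18 of 19 CpG-rich bins at Sox17 and 13 of 14 at Sox18, or 8 of 9 at Sox18 without the bins of the Tcea2 region. At Sox7 they covered 11 of 17, and 3 further CpG-rich bins lay in no peak of either replicate. Other bins were so covered in 2 of 108 cases at Sox17, 6 of 95 at Sox18 (3 of 90 without the Tcea2 region) and 2 of 118 at Sox7. Neighbouring bins share peaks and are not independent, and the part of CpG content in these calls was not tested.

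The start sites themselves differed. Within 500 bp on each side, CpG density was 8.2 per 100 bp at Sox7 and 7.5 at Sox18, at percentiles 80.8 and 75.5 of all protein-coding genes. At Sox17 it was 2.6, at percentile 37.0 and under the limit used for CpG-rich start sites. Genes with a start site of like CpG density, within 0.5 CpG per 100 bp, gave a closer background. Near Sox17, 244 of 1827 such genes (13.4%) had a peak of both replicates at the start site. The shares were 1207 of 1709 (70.6%) near Sox7 and 1250 of 1951 (64.1%) near Sox18. By this measure Sox17 was occupied where most genes of like CpG density were not, whereas occupancy of Sox7 and Sox18 was the usual state of their class. The match used 500 bp on each side, whereas peaks were sought within 2.5 kb. At Sox17, bins of 200 bp starting at −714 and −1114 bp held 8 CpG per 100 bp each. These bins lay outside the matched stretch and inside peaks of both replicates.

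Among the occupied genes of like CpG density, the fold enrichment of Sox7 stood at percentiles 47.3 and 30.0, and its width at 94.4. Sox18 stood at 89.7 and 76.7 in fold enrichment and 83.9 in width. At Sox17 the peak with the highest fold enrichment within 2.5 kb of the start site was the coding-exon one, at percentiles 83.2 and 93.0. With the peak over the start site itself the Sox17 percentiles were 67.6 and 74.2.

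The other Sox genes gave a family background. Of 17 Sox genes of other groups, 13 (76.5%) had a peak of both replicates at the start site. The share was 37.5% over all protein-coding genes and 58.8% over those with a CpG-rich start site. Sox1 is among the 17 but was not analysed here, so that the share counts it as unoccupied. In 3 genes no peak of either replicate was called at the start site. These were Sry, the testis-determining gene, on the Y chromosome, where each list had 0 peaks, and Sox5 and Sox15. CpG density at their start sites was 0.6, 1.8 and 4.2 per 100 bp. The list was chosen by family and not by tissue, and its members are largely CpG-rich developmental genes.

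By the mean of the highest fold enrichment at the start site, 16 occupied Sox genes could be ordered. Sox18 was the 7th (ranks 3 and 7 in the single replicates), Sox17 the 8th (ranks 9 and 6) and Sox7 the 15th (ranks 13 and 16). In SoxB, the group of neural and pluripotency factors, Sox2 was the highest (4.54 and 5.81) and Sox14 the lowest (3.78 and 4.43). In SoxC the values were 3.91 and 5.71 at Sox4, and 3.44 and 4.54 at Sox12. In SoxD they were 4.46 and 5.25 at Sox13, and 4.10 and 4.77 at Sox6. In SoxE, the group of neural crest and cartilage factors, Sox9 had 4.33 and 3.91 and Sox10 had 2.9995 and 4.20. Sox30, the single SoxH gene, had 4.76 and 4.79. The SDs between replicates ran up to 1.27 (Sox4), so that most neighbours in this order, including Sox17 and Sox18, did not differ beyond their spread. These SDs include a shift between replicates that most regions of the series shared. The place of Sox17 rests on its coding-exon region. With peaks within 0.5 kb of the start site alone it was the 13th of 16, with a mean of 3.93, while Sox18 and Sox7 kept their ranks. In width of the widest region at the start site Sox7 was the 6th, Sox17 the 8th and Sox18 the 11th.

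**Figure D4:**
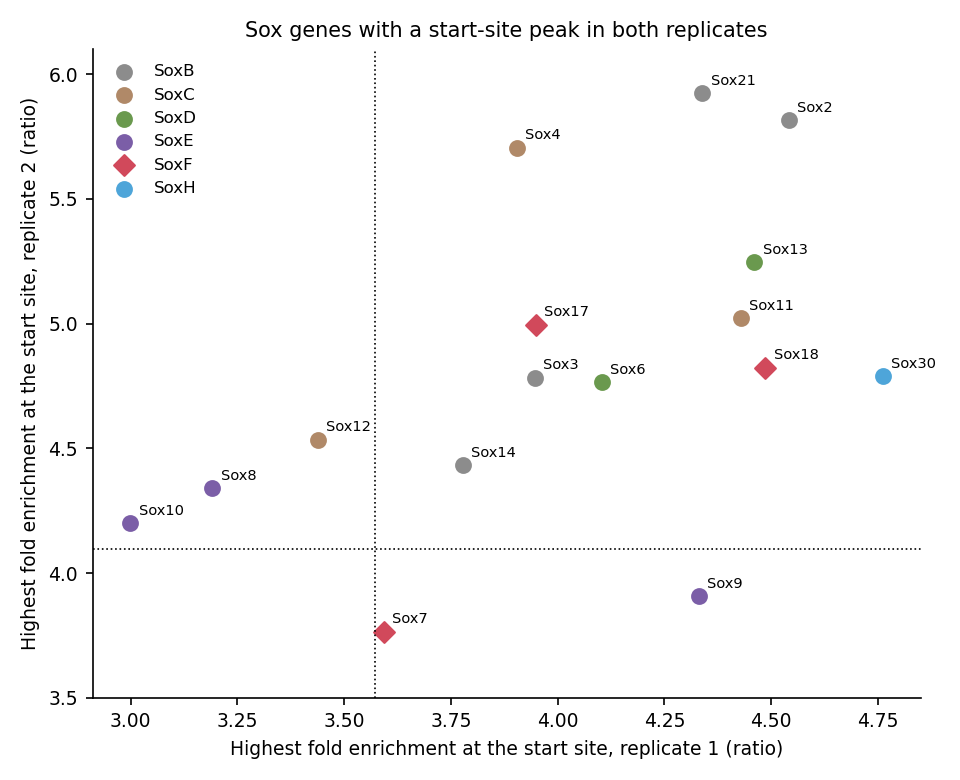
Highest fold enrichment within 2.5 kb of the start site in replicate 1 (horizontal axis) against replicate 2 (vertical axis) for 16 Sox genes, coloured by group, with SoxF as diamonds; neither axis starts at 0. Dotted lines are the medians of all 8333 genes with a start-site peak in both replicates, 3.57 and 4.10; Sox17 and Sox18 lie above both, and Sox7 lies above the first and below the second.

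A further list of 35 genes in 4 groups was chosen by hand, with blood and endothelial genes and protein partners of SoxF. They are called haemogenic endothelium genes here, and joint action with SoxF was not tested. A peak of both replicates was present at the start site of 25 of them (71.4%), again beside 37.5% of all protein-coding genes. At Gfi1b, counted among the 25, the peaks of the replicates did not overlap. The transcription factors of blood and endothelium were occupied in 8 of 10. The remaining ones were Erg, with a peak in replicate 1 alone, and Gfi1, which was not analysed here because the annotation does not class it as protein-coding. Gfi1 stayed in the totals of 10 and 35, and the shares count it as unoccupied. Notch and arteriovenous genes were occupied in 9 of 10, with no start-site peak at Notch4. Of the endothelial receptors and junction genes, 7 of 12 were occupied. No start-site peak of either replicate was called at Tek and Tie1, the angiopoietin receptor and its relative, at the adhesion genes Cdh5, Pecam1 and Vcam1, or, among the protein partners, at Mef2c. Of these partners only Rbpj, the DNA-binding effector of Notch, was occupied in both replicates, and Ctnnb1, which encodes β-catenin, had a peak in replicate 2 alone.

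CpG density at the 7 unoccupied start sites of that list was 1.9 per 100 bp at Tek, 2.1 at Tie1, 1.8 at Cdh5, 1.6 at Pecam1, 1.5 at Vcam1, 1.2 at Notch4 and 3.4 at Mef2c. The 2.6 of Sox17 is above that of each of these genes except Mef2c. Occupied start sites of the list were not all denser, with 2.0 at Gfi1b and 2.7 at Etv2. Erg, with a peak in replicate 1 alone, had 2.5. The median fold enrichment of the occupied start sites was 3.58 and 4.23 over the list, beside 3.59 and 3.76 at Sox7, 3.95 and 4.996 at Sox17 and 4.49 and 4.82 at Sox18.

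The genes most like each SoxF gene were sought among 8333 genes with a start-site peak of both replicates, by the summed difference in percentile rank of fold enrichment in each replicate and of region width. For Sox7 they were Sfmbt2, Phf15 and Junb, with summed differences of 5.80 to 7.32 percentile points. For Sox17 they were Lbx2, Tcf7 and Samd4 (1.57 to 3.26), again by its coding-exon region, and for Sox18 Rreb1, Spsb1 and Bhlhe22 (2.87 to 4.09). Likeness over 3 measures of 2 libraries is a description of the peaks alone.

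Short binding sequences of SOX, SCL, GATA and ETS factors were looked for on both strands of the 4 SoxF regions. The windows were 1000 bp, centred on the part shared by both replicates. Whether these factors act at the loci was not tested. The SOX words ACAAAG and ACAATG and the E-box CAGATG, the kind of site used by SCL with E proteins, had 0 matches in the 4 windows. Among all 9901 regions found in both replicates, windows of the same length held them in 37.1%, 18.6% and 38.3%. The GATA word GATAA occurred once at Sox7 and once in the start-site window of Sox17, and in 38.5% of all regions. The ETS core AGGAA had 6 matches at Sox7, 3 in each Sox17 window and 0 at Sox18, beside 92.4% of all regions with a match and a median of 3 matches. Absence of these letters says nothing of the factors themselves or of sites elsewhere in the loci.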

How the data were processed

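RYBP ChIP-seq samples and inputs were grouped by the labels. According to the study's methods, chromatin was cross-linked with EGS and formaldehyde, paired-end reads were aligned to mm9, duplicates were removed and broad peaks were called per replicate. The submitters' processing notes name Bowtie 1.1.2b, MACS2 2.0.10 and bedtools. The deposited lists give fold enrichment as a linear ratio. The authors' lists express each p-value and each q-value as −log10, and the deposited score is 10 times the −log10 q, rounded down. The merged list of the authors holds positions only. All 22409 merged regions equalled the union of both lists after replicate 2 starts had been moved by 1 bp.

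Positions were printed counting from 1. Overlap was at least 1 bp, and several peaks at a start site gave their highest fold enrichment. Genes came from GENCODE of the same build, protein-coding only, and sequence from its genome, with Python 3.11.15, pandas 2.3.3 and pysam 0.24.0. The overlap code was tested on simulated peaks. Where a table of RefSeq promoters was searched, 0 of 3 SoxF genes matched, and no promoter is printed. A sequence stretch of Sox7 is not reported here. Members, gene lists and comparisons were chosen with earlier results of these data known. Named were the SoxF genes with all their regions, genes within their windows, listed genes without a start-site peak, the highest and lowest of each Sox group, and the 3 genes most like each member. The occupied haemogenic partner, Rbpj, and the genes with a peak in a single replicate were named after their values were seen. So were Gfi1b and Etv2. Input samples were not analysed here. Labels give separate samples, and the series' design text speaks of independent differentiations. The peak lists hold no read depth; the study states mapped reads per library, and no calculation used them. Other windows, thresholds and single replicates were tried as alternatives.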

Additional observations from a re-analysis of the deposited data

How the results depend on the processing

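The count of 7 merged regions at the SoxF loci was 4 with the gene body alone, which leaves out the flanks by construction, and ran from 5 to 10 under the other alternatives. Each SoxF gene kept a start-site peak in both replicates under each alternative that used both. These were windows of 0.5 kb and 5 kb, a −log10 q of at least 2, overlap of the replicate peaks, and a peak over the start site itself. The last was chosen after the data were seen. When either replicate was left out, the count of occupied genes ran from 3 to 3 for SoxF, from 13 to 13 for the other Sox genes and from 26 to 26 for the haemogenic endothelium genes. When both replicates had to reach a −log10 q of 2, the last count was 20 in place of 25. It was 24 when the peaks of the replicates had to overlap, and 24 with windows of 0.5 kb. The share of all protein-coding genes with an occupied start site was computed for the main setting alone (37.5%). The counts of occupied genes under other settings thus have no like background. The share of all gene windows with a merged region depended on the window, from 54.0% for the gene body alone to 69.3% with 25 kb on each side, and was 50.7% to 59.8% with a single replicate. Place in the order of Sox genes depended on the start-site window for Sox17 (8 or 13 of 16). With peak lists and no reads, a site with no peak cannot be told from one under the caller's threshold. No paired analysis was possible because only ChIP samples had values, and inputs numbered alike were not analysed here.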
